A study of Bos taurus with 3 samples.

Results

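Genes of the proteasome were examined in cultured gonadal ridge epithelial-like (GREL) cells of the fetal bovine ovary and in fibroblasts of the adult bovine ovary. Members were taken by gene symbol alone, as every gene whose symbol begins with PSMA, PSMB, PSMC, PSMD, PSME, PSMF or PSMG followed by a number, with PSMB8 and PSMB9 left out. The rule found 38 of the 9155 genes that had a named probe set, read by 44 of 24016 probe sets. Of the 38, 37 code for a proteasome subunit, activator, regulator or assembly factor. PSME3IP1, a protein that binds the activator subunit PSME3, entered through its symbol and is not part of the particle. PSMA2, PSMA8, PSMB11, PSMD3, PSMD7, PSMD8, PSMD12, PSME3 and PSMG4 had no probe set named here and were not analysed here.

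The arrays were Affymetrix GeneChip Bovine Genome Arrays, 1 per culture. Of the 3 cultures, 2 were GREL isolates of polygonal cells, labelled as 130 days of gestation and described by the study as separate, clonally enriched cultures, with a slightly younger age for one of them. The remaining culture held fibroblastic cells, taken from stroma of the ovarian medulla of an animal labelled as an adult of >1 year. Cells of both kinds were dispersed with collagenase, grown in the same serum-containing medium and carried no added treatment. The fibroblasts have no replicate, so cell type, fetal against adult age and the particular fibroblast culture cannot be told apart in any difference below. In bulk RNA, a larger share of cells of one type and more RNA per cell cannot be told apart either.

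The proteasome is the barrel-shaped protease that degrades proteins tagged with ubiquitin in the cytosol and nucleus. Its 20S core is a stack of alpha rings, which gate the entrance, and beta rings, which hold the cutting sites on PSMB5, PSMB6 and PSMB7. The 19S regulatory particle caps the core, recognises the ubiquitin tag, removes it and unfolds the substrate with a ring of ATPases (the PSMC proteins). Under interferon the cutting subunits can be replaced by PSMB8, PSMB9 and PSMB10, giving the immunoproteasome, and the PA28 activator (PSME1 and PSME2) is induced. Dividing cells depend on the proteasome to remove cyclins and other regulators of the cell cycle.

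Values are log2 of the signal after RMA (robust multi-array) background subtraction and quantile normalization, rounded to steps of 0.1, so a difference is uncertain by up to 0.1 from rounding alone. Differences are GREL minus fibroblasts on this log2 scale, and 1.5-fold is 0.585. Where a gene is given 3 values in a row, they belong to the fibroblasts, GREL isolate 1 and GREL isolate 2, in that order. Probe sets differ in brightness, so levels are compared within a gene only. The array medians over all probe sets were 2.9 in the fibroblasts, 3.0 in GREL isolate 1 and 2.9 in GREL isolate 2, and those of the 38 genes were 7.30, 7.80 and 8.15. As a background level, the 90th percentile of 48 genes of other organs was 6.77, 6.62 and 6.98 in the same order, and 27, 31 and 33 of the 38 genes lay above it. Their 95th percentile was 8.37, 8.92 and 9.08, raised by ALB, CHGA, APOA1, PRL and POMC, all bright on the 3 arrays, and 5, 6 and 6 members lay above that. A member under either level may still be expressed.

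Proteasome genes were higher in the GREL cells almost throughout. Of the 38, 34 were higher in both isolates by any amount, against 41.6% of all named genes, and 2 were lower in both, against 33.5%. Over 1.5-fold in both isolates, 16 were higher, against 16.3% of all named genes, and 1, PSMB10, was lower, against 11%. Among the 16, PSMB6, PSMB7 and PSMG3 differed by 0.6 in isolate 1, which exceeds 1.5-fold by less than rounding can give. The shares over all named genes are subject to the same rounding. Over 2-fold in both isolates, PSMB5 alone was higher and PSMB10 alone lower, against 5.8% and 4.78% of all named genes. No member was over 3-fold apart in both, against 2.38% of all named genes higher and 2.38% lower. At these folds the member shares were thus below those of all named genes. The median difference of the members was 0.55, or 1.46-fold, and that of all named genes 0.05. Without PSME3IP1 these counts and the median stayed as they are. In 25 members the smaller of the 2 differences was positive and larger than the gap between the isolates, which held for 27.9% of all named genes. Subunits of the core and of the cap each gave 10 of these.

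In limma, 0 of the 38 passed an adjusted p under 0.05 over all probe sets, where 0% were called higher and 0% lower. At an unadjusted limma p under 0.05, 15 of the 38 members were higher and 1 was lower. By the same count, 1174 of the 9155 named genes were higher and 1012 lower, also at 1 probe set per gene. Over all 24016 probe sets, named or not, 2354 were higher and 2666 lower. The one-way ANOVA named in the methods could test 33 members and called 0, with 0 at an unadjusted p under 0.05. A robust prior in limma called 4 higher (PSMA5, PSMC6, PSMD14 and PSMG1), in each of which the isolates had equal rounded values, and 2.38% of all probe sets higher and 2.57% lower. The spread in these tests comes from 1 gap between 2 isolates and the fibroblasts are assumed to vary likewise, so none of the differences below is shown beyond the spread between cultures.

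**Figure D1:**
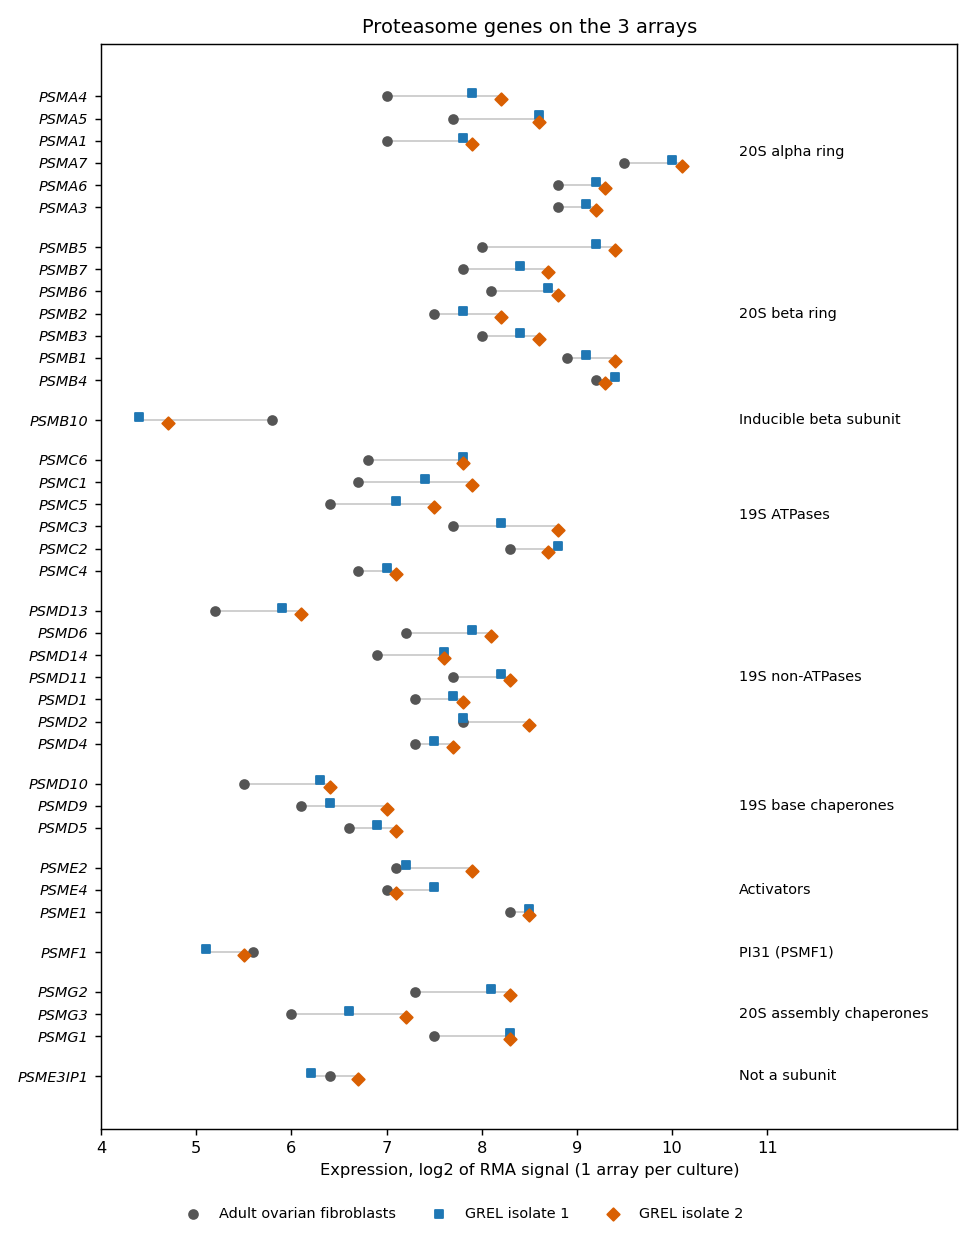
Expression of the 38 proteasome genes (horizontal axis, log2 of RMA signal, 1 array per culture) with circles for the adult fibroblasts, squares for isolate 1 of the GREL cells and diamonds for isolate 2, ordered by role and by mean difference within a role; grey lines join the lowest and highest value. Both isolates lie above the fibroblasts in 34 genes, and below them in PSMB10 and PSMF1.

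All 13 measured constitutive subunits of the 20S core were higher in both isolates, 6 of them over 1.5-fold, with a median difference of 0.55. In the beta ring the catalytic subunit PSMB5, which carries the chymotrypsin-like site, read 8.0, 9.2 and 9.4. Its isolates were 2.30-fold and 2.64-fold above the fibroblasts, by a mean of 1.30 with a standard error of 0.14 (limma adjusted p = 0.20). No member had a larger difference. PSMB7, with the trypsin-like site, read 7.8, 8.4 and 8.7, a mean difference of 0.75 with a standard error of 0.21 (limma adjusted p = 0.286). PSMB6, with the caspase-like site, read 8.1, 8.7 and 8.8, a mean difference of 0.65 with a standard error of 0.075 (limma adjusted p = 0.20). For each catalytic subunit the isolates lay further from the fibroblasts than from each other.

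The beta subunits without a cutting site were higher in both isolates too, none over 1.5-fold in both. PSMB2 read 7.5, 7.8 and 8.2, and PSMB3 read 8.0, 8.4 and 8.6. PSMB1 read 8.9, 9.1 and 9.4. PSMB4 had the smallest difference of the ring, 0.15, reading 9.2, 9.4 and 9.3. Its isolate 2 was above the fibroblasts by no more than rounding can give.

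In the alpha ring, PSMA4 read 7.0, 7.9 and 8.2, a mean difference of 1.05 with a standard error of 0.21 (limma adjusted p = 0.261). PSMA5 read 7.7, 8.6 and 8.6, and PSMA1 read 7.0, 7.8 and 7.9. These 3 were over 1.5-fold higher in both isolates, and the other alpha subunits were not. PSMA7 read 9.5, 10 and 10.1. PSMA6 read 8.8, 9.2 and 9.3, and PSMA3 read 8.8, 9.1 and 9.2. In every measured alpha subunit both isolates lay above the fibroblasts.

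All 6 ATPases of the 19S base were higher in both isolates, 3 of them over 1.5-fold, with a median difference of 0.85. PSMC6 read 6.8, 7.8 and 7.8, which is 2-fold in each isolate. PSMC1 read 6.7, 7.4 and 7.9, and PSMC5 read 6.4, 7.1 and 7.5. Both isolates of these 3 exceeded 1.5-fold. PSMC3 read 7.7, 8.2 and 8.8, so that its isolates were 0.6 apart and its mean difference of 0.80 had a standard error of 0.42. PSMC2 read 8.3, 8.8 and 8.7. PSMC4, with the smallest difference among the ATPases, read 6.7, 7.0 and 7.1.

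Of the 7 measured 19S subunits that are not ATPases, 6 were higher in both isolates, 3 of them over 1.5-fold, and the median difference was 0.55. PSMD14, the deubiquitinase of the lid that strips the ubiquitin chain from the substrate, read 6.9, 7.6 and 7.6. The lid subunit PSMD6 read 7.2, 7.9 and 8.1, and PSMD13, also of the lid, read 5.2, 5.9 and 6.1. PSMD13 lay under the lower background level on all 3 arrays, so the size of its difference is less certain, and a dimmer probe set of PSMD6 differed in the opposite direction. PSMD11, a further lid subunit, read 7.7, 8.2 and 8.3. PSMD1, a scaffold of the base, read 7.3, 7.7 and 7.8. PSMD4, a ubiquitin receptor, read 7.3, 7.5 and 7.7. None of PSMD11, PSMD1 and PSMD4 reached 1.5-fold in both isolates. PSMD2, the other large scaffold of the base, read 7.8, 7.8 and 8.5, so its difference of 0.35 comes from isolate 2 alone.

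Factors that build the particle were higher as well. PSMG1 and PSMG2 pair to assemble the alpha ring. PSMG1 read 7.5, 8.3 and 8.3, and PSMG2 read 7.3, 8.1 and 8.3. PSMG3, a further chaperone of the alpha ring, read 6.0, 6.6 and 7.2. All 3 measured 20S chaperones were over 1.5-fold higher in both isolates, with a median difference of 0.90. PSMG3 lay under the lower background level in the fibroblasts and isolate 1, so the size of its difference is less certain. In isolate 1 it differed by 0.6, which exceeds 1.5-fold by less than rounding can give. Among the chaperones of the 19S base, PSMD10 (gankyrin) read 5.5, 6.3 and 6.4. PSMD9 read 6.1, 6.4 and 7.0, and PSMD5 read 6.6, 6.9 and 7.1. All 3 base chaperones were higher in both isolates, and PSMD10, which lay under the lower background level throughout, was over 1.5-fold higher.

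**Figure D2:**
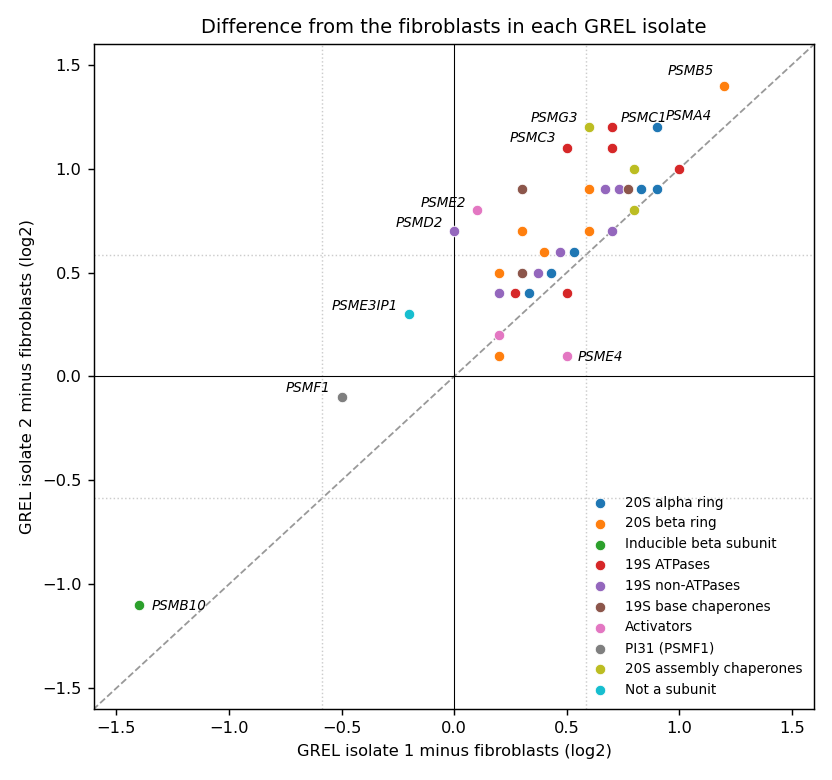
Difference from the fibroblasts in GREL isolate 1 (horizontal axis) and GREL isolate 2 (vertical axis), both in log2, for each of the 38 genes (points, coloured by role, genes at the same place set slightly apart). Dotted lines mark 1.5-fold and the dashed line equal differences; most points lie above the dashed line, and PSMB10 lies alone at the lower left.

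The 3 measured activators of the core had a median difference of 0.30, beside 0.55 for the core itself. PSME1, a chain of the PA28 activator, read 8.3, 8.5 and 8.5. Its partner PSME2 read 7.1, 7.2 and 7.9. PSME4 (PA200), a nuclear activator, read 7.0, 7.5 and 7.1. Each was above the fibroblasts in both isolates, but by over 1.5-fold in both for none of the 3, and for PSME2 and PSME4 one isolate lay within 0.1 of the fibroblasts. PSMF1, known as PI31 and first described as an inhibitor of the 20S core, read 5.6, 5.1 and 5.5. Its isolate 2 was below the fibroblasts by no more than rounding can give, and PSMF1 lay under the lower background level on all 3 arrays. PSME3IP1 read 6.4, 6.2 and 6.7, with the isolates on either side of the fibroblasts.

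Besides PSMF1, PSMB10 was the only member lower in both isolates. It replaces PSMB7 in the immunoproteasome and read 5.8, 4.4 and 4.7. The mean difference was -1.25 with a standard error of 0.21 (limma adjusted p = 0.230). Outside the rule, PSMB8, the counterpart of PSMB5, read 5.2, 4.5 and 4.2. PSMB9, the counterpart of PSMB6, read 4.1, 4.6 and 5.0, the opposite direction to PSMB8 and PSMB10. These inducible subunits lay under the lower background level on every array, so the sizes of their differences are uncertain.

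Interferon-induced genes outside the proteasome were lower in the GREL cells, as were PSMB8 and PSMB10 but not PSMB9. Of 29 listed, 19 were measured, 18 were lower in both isolates and 14 were over 1.5-fold lower, with none higher. The list median was 4.7 in the fibroblasts, 2.5 in isolate 1 and 3.0 in isolate 2. Only 2 of the 19, IFI6 and IFI27, lay above the lower background level in the fibroblasts and 0 did so in either isolate. PSME1 and PSME2, which interferon also induces, were not lower. Whether the interferon-induced genes have a part in the level of PSMB10 was not tested.

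**Figure D3:**
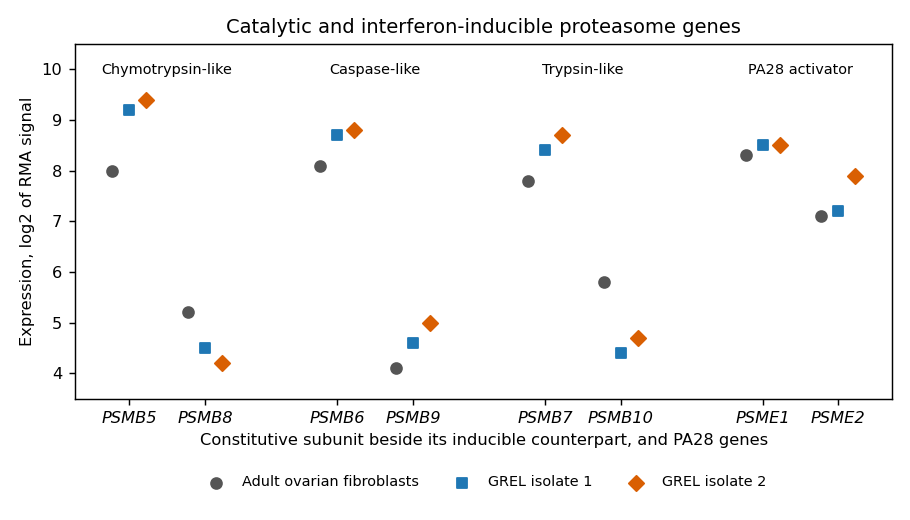
Expression (vertical axis, log2 of RMA signal) of the 3 catalytic subunits beside their interferon-inducible counterparts and of the PA28 genes, with circles for the adult fibroblasts, squares for isolate 1 of the GREL cells and diamonds for isolate 2. PSMB5, PSMB6 and PSMB7 are higher in both isolates, PSMB8 and PSMB10 are lower, and PSMB9 is higher; levels of different genes are not comparable, since probe sets differ in brightness.

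The 2 GREL isolates were not alike in these genes. Isolate 2 lay above isolate 1 in 30 members, below it in 3 (PSMB4, PSMC2 and PSME4) and level with it in 5, against 51.4% of all named genes in which isolate 2 was above. The median gap was 0.20 and the largest 0.7. Over 1.5-fold higher than the fibroblasts were 16 members in isolate 1 and 24 in isolate 2, with median differences of 0.50 and 0.70. The shares over all named genes were 19.7% in isolate 1 and 24.1% in isolate 2, so isolate 2 had the larger share there too. In 5 members the isolates were over 1.5-fold apart (PSMC3, PSMD2, PSMD9, PSME2 and PSMG3), each higher in isolate 2. The same count was not made over all named genes, so it cannot be called more or less than usual. In PSMA5, PSMC6, PSMD14, PSME1 and PSMG1 both isolates had the same rounded value, so their spread is known only to be within the rounding.

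A gene can be read by several probe sets, and the one of highest mean was used. Of the 38 genes, 6 had a further probe set, which differed in the same direction in 5. The further probe set of PSMC2 read 6.7, 7.5 and 7.4, and that of PSMC5 read 2.7, 3.1 and 3.5. That of PSMB2 read 7.4, 7.7 and 7.9, and that of PSMC6 read 6.0, 6.2 and 6.5. That of PSMD4 read 6.8, 6.9 and 7.2. In these 5 genes both probe sets placed both isolates above the fibroblasts. The probe sets of PSMD6 disagreed. The dimmer one read 4.3, 4.1 and 3.4, a difference of -0.55 against 0.80 at the brighter one.

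Shares among brighter genes depended on the level asked for. Of the 1676 named genes whose mean over the 3 arrays exceeded the lower background level, a set chosen after the values were seen, 51.9% were higher in both isolates, 22.1% were over 1.5-fold higher and 48.7% were above isolate 1 in isolate 2. Of the 31 members in that set, 30 were higher in both isolates, 13 of them over 1.5-fold, and 0 were lower in both. Of the 578 named genes above the 95th percentile level in the fibroblasts or in the GREL mean, 39.6% were higher in both isolates, 14.4% were over 1.5-fold higher and 22.5% over 1.5-fold lower. Of the 6 members among these, 6 were higher and 1, PSMB5, was over 1.5-fold higher. PSMB5 lay above that level in the isolates but not in the fibroblasts. It entered the set only through the group where it is high, so its direction there follows from the choice of set.

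Other large complexes of housekeeping genes had other medians. Of 66 cytosolic ribosomal protein genes, 45 were higher in both isolates and 1 was over 1.5-fold higher, with a median difference of 0.15. Of 84 genes of oxidative phosphorylation, 58 were higher and 14 over 1.5-fold higher, with a median of 0.35. All 6 measured genes of the chaperonin, which folds actin and tubulin, were over 1.5-fold higher, with a median of 1.20. Among all named genes, 41.6% were higher in both isolates and 16.3% over 1.5-fold higher. The share over 1.5-fold was 16.7% in oxidative phosphorylation, near that of all named genes, and 1.52% in ribosomal protein genes, below it. The proteasome median of 0.55 lies between those of oxidative phosphorylation and the chaperonin. These medians were not tested against each other.

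**Figure D4:**
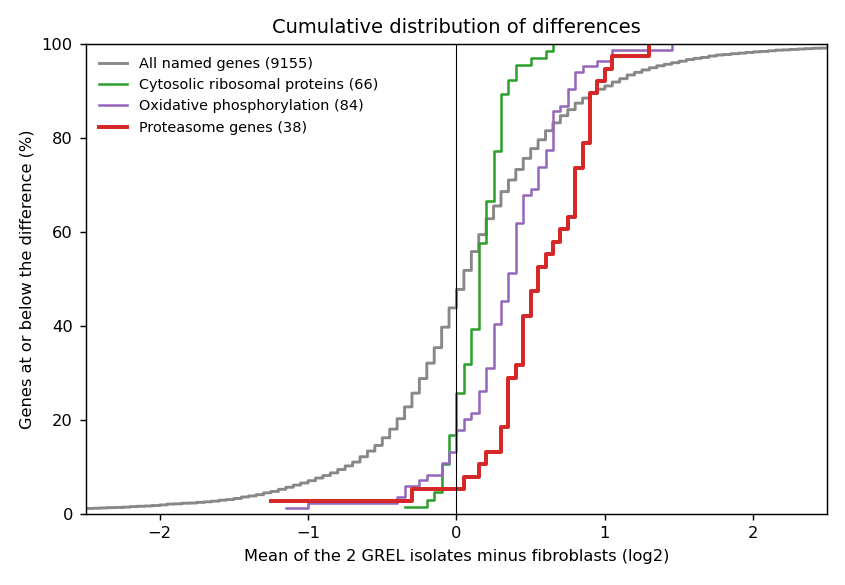
Share of genes (vertical axis, %) at or below each difference of the GREL mean (2 isolates) from the fibroblasts (horizontal axis, log2) for the 38 proteasome genes, 66 cytosolic ribosomal protein genes, 84 genes of oxidative phosphorylation and all 9155 named genes; differences beyond 2.5 are not shown. The proteasome curve lies to the right over most of its range, with a median of 0.55 against 0.05 for all named genes.

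Factors that bind the proteasome without being named as subunits leaned the same way. Of 11 measured, 9 were higher in both isolates, 3 over 1.5-fold, and none was lower in both, with a median difference of 0.25. Among all named genes, 41.6% were higher in both isolates and 16.3% over 1.5-fold higher. POMP, which helps complete the beta ring, read 9.1, 9.4 and 9.3. USP14, the deubiquitinase of the 19S base, read 6.9, 7.7 and 7.9. ADRM1, a ubiquitin receptor of the cap, read 4.0, 4.6 and 4.9. AKIRIN2, which brings proteasomes into the nucleus, read 6.5, 7.1 and 7.2. USP14, ADRM1 and AKIRIN2 are the 3 over 1.5-fold and were named after their values were seen. ADRM1 lay under the lower background level on all arrays. In isolate 1, ADRM1 and AKIRIN2 differed by 0.6, which exceeds 1.5-fold by less than rounding can give.

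Transcription factors that act on proteasome genes, listed with their partners and a repressor, were mixed. The list holds NFE2L1 (NRF1), which induces subunit genes when the particle is inhibited, the related NFE2L2 with its repressor KEAP1, small MAF partners and factors of the endoplasmic reticulum that handle NFE2L1. Of 7 measured, 1 was higher and 3 were lower in both isolates, none over 1.5-fold, and the median difference was -0.20. NFE2L1 itself, named after its values were seen, read 7.7, 7.6 and 7.1. The 1 higher gene was the repressor KEAP1, and DDI2 and NGLY1, also listed, had no probe set named here. Factors of opposite effect share the list, so its median gives no direction of regulation. Whether any of them has a part in the proteasome differences was not tested.

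The ubiquitin system upstream of the proteasome was mixed. Of 28 E2 enzymes, which carry ubiquitin, 14 were higher in both isolates and 8 lower, 4 and 3 of them over 1.5-fold, with a median difference of 0.23. UBE2C, the E2 of the anaphase-promoting complex, read 6.6, 8.4 and 9.2. UBE2D3 read 9.0, 9.6 and 9.6, and UBE2B read 8.5, 8.4 and 8.0. A list of ubiquitin genes and activating enzymes had no ubiquitin gene with a probe set named here, and its 5 measured genes were activating enzymes (E1) of ubiquitin and of related modifiers. UBA1, the main E1 for ubiquitin, read 8.6, 8.4 and 8.6. UBA6, an E1 for ubiquitin, read 4.7, 5.3 and 5.3, and UBA2, of the E1 for SUMO, read 6.1, 7.0 and 7.0. UBA3, of the E1 for NEDD8, read 6.4, 6.4 and 6.6. UBA2 and UBA6 were thus over 1.5-fold higher in both isolates and UBA7 over 1.5-fold lower. UBA6 differed by 0.6 in each isolate, which exceeds 1.5-fold by less than rounding can give. UBA7, which activates the interferon-induced modifier ISG15, read 5.1, 3.3 and 3.3. UBE2L6, the E2 for ISG15, read 4.8, 3.4 and 3.6. UBA2, UBA3, UBA6, UBA7 and UBE2L6 were named after their values were seen. UBA3, UBA6, UBA7 and UBE2L6 lay under the lower background level on all arrays, and UBA2 did so in the fibroblasts. The sizes of these differences are therefore uncertain.

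Of 19 genes of cullin ligases and the COP9 signalosome, 12 were higher and 2 lower in both isolates, 1 of each over 1.5-fold, with a median difference of 0.30. NEDD8, which activates cullins, read 8.5, 8.6 and 9.0. Of 12 shuttle factors and partners of VCP, 6 were higher and 2 lower, 2 and 0 over 1.5-fold, with a median of 0.23. VCP, the segregase that extracts tagged proteins, read 8.0, 8.6 and 8.7, and the shuttle RAD23B read 7.8, 8.5 and 8.5. These are the 2 over 1.5-fold, named after their values were seen. In isolate 1, VCP differed by 0.6, which exceeds 1.5-fold by less than rounding can give. Of 35 deubiquitinases, 17 were higher and 10 lower, 7 and 4 over 1.5-fold, with a median of 0.15. For comparison with these 3 lists, 41.6% of all named genes were higher and 33.5% lower, 16.3% and 11% over 1.5-fold. The deubiquitinases, at 20% and 11.4% over 1.5-fold, were near those shares. UCHL1 read 9.0, 9.7 and 9.8.

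**Figure D5:**
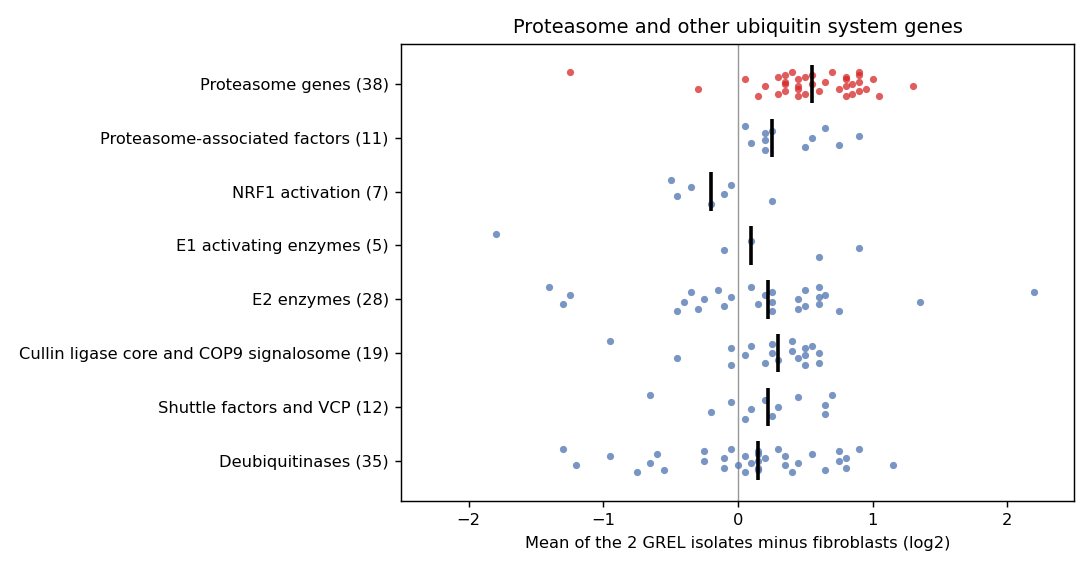
Difference of the GREL mean (2 isolates) from the fibroblasts (horizontal axis, log2). Each point is a measured gene of the proteasome or of another list of the ubiquitin system, vertical bars are medians and brackets hold gene numbers; the proteasome bar stands at 0.55, the others at 0.30 or less, and that of the NRF1 list at -0.20.

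Markers of proliferation and of cell type differed alongside the proteasome genes. All 25 measured cell cycle genes exceeded the fibroblasts by over 1.5-fold in each isolate and were higher in isolate 2 than in isolate 1. Isolate 2 was also above isolate 1 in 30 of the 38 proteasome genes, against 51.4% of all named genes. The share was 73.8% in oxidative phosphorylation genes and 25.8% in cytosolic ribosomal protein genes. The median of the 25 cell cycle genes was 4.7 in the fibroblasts, 6.6 in isolate 1 and 7.3 in isolate 2. Stromal markers, 8 in number, were all lower in both isolates, with medians of 9.1, 7.9 and 6.7. Of 6 epithelial markers 5 were higher in both, with medians of 3.45, 5.55 and 4.6. KRT19, a keratin of simple epithelia that the study also listed from these arrays, read 7.1, 11.3 and 11.6. CDH1, the exception, read 3.6, 4.7 and 3.2, and EPCAM read 1.0, 3.9 and 1.5, so the isolates differed in both. CDH1 and EPCAM were named after their values were seen and lay under the lower background level on all arrays. Markers of granulosa, endothelial, blood and germ cells had medians of at most 2.6 on any array. FOXL2, a granulosa marker that the study also stained in GREL cells of the fetal ovary, read 1.8, 1.9 and 2.0. Brighter exceptions, named after their values were seen, were the granulosa marker INHBA at 6.4, 7.3 and 6.5, INHA at 4.1, 4.4 and 4.5, and the germ cell marker KIT at 5.7, 1.5 and 2.7. The part of proliferation or of cell type in the proteasome differences was not tested.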

How the data were processed

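Members and gene lists were chosen with earlier results of these data known. The deposited log2 values are the authors' RMA output (background subtracted, quantile normalized, Partek 6.5 in the submitters' processing notes), rounded to steps of 0.1 and without detection calls. Quantile normalization hides any shift of the whole transcriptome. The table holds 24128 probe sets, among them 112 array controls that were not used. Of the rest, 13292 had 1 symbol in the platform annotation, which can be old (13263 matched the current RefSeq gene table, where 0 symbols differed), 86 had several and 10638 none. No genome build is given in the sources used here, and no coordinates are printed.

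Each gene took its probe set of highest mean. GREL cells and fibroblasts were compared by limma 3.58.1 (R 4.3.3, lmFit and eBayes, 1 residual degree of freedom) over 24016 probe sets with Benjamini-Hochberg adjustment. The code was also run on simulated arrays, where fibroblasts and isolates had the same spread and spreads varied less between probe sets than here. That run checks the code and cannot show how the test performs on these data. The isolates have equal rounded values in 3513 probe sets, where their spread is understated. Folds and medians came from Python 3.11.15 (pandas 2.3.3, numpy 2.4.6) and carry no test. The number of arrays limits the precision. Every member was named. Genes of other lists were named where they lay above the 95th percentile background on at least 1 array, up to 3 in each direction, unless said to be named after their values were seen. PSMB8, PSMB9, KEAP1 and FOXL2 were named outside this rule and lay under that background on all arrays. Other settings were the methods' ANOVA, a trend or robust prior in limma, removal of dim probe sets, repeated quantile normalization, median centring, averaging of probe sets, other folds, the 90th percentile background, and each isolate left out. Leaving out PSME3IP1, spreading values within the rounding step, requiring more than that step, and counting bright genes alone were added after the data were seen. PSMC3IP, meant to be left out as a further setting, has no probe set named here, and promoter motifs were not analysed here.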

Additional observations from a re-analysis of the deposited data

How the results depend on the processing

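With 1 fibroblast array no setting could measure the spread between fibroblast cultures, and every number here rests on 3 arrays. The median difference of the members was 0.50 to 0.70 when either isolate was left out, and 0.40 in the 6 members that passed the filter on dim probe sets, all 6 of them higher in both isolates, 1 over 1.5-fold, with 0 lower by 1.5-fold or by any amount, where 39.6% of the filtered genes were higher and 14.4% over 1.5-fold higher; that filter keeps genes through the group where they are high. Over 2-fold in both isolates there was 1 member higher, against 5.8% of all named genes. Over 3-fold there were 0 higher and 0 lower, against 2.38% each of all named genes. Asking for more than the rounding step, added after the data were seen, left 1 member lower in both isolates, PSMB10. At the 90th percentile background, 27, 31 and 33 members lay above it in place of 5, 6 and 6 in the fibroblasts and isolates 1 and 2. limma with a robust prior called 4 members higher and 0 lower (PSMA5, PSMC6, PSMD14 and PSMG1, whose isolates round to the same value, adjusted p = 0.045), with 571 higher and 618 lower over all probe sets. Values spread within the rounding step, also added then, gave a median of 0 members called over 20 draws, with 171 higher and 254 lower over all probe sets. PSME3IP1 took the opposite sign with repeated quantile normalization, at -0.05, and ranged from -0.20 to 0.30 when either isolate was left out. With the mean over probe sets PSMC6 was at 0.68 and PSMD6 at 0.12. Members over 1.5-fold higher numbered 14 under repeated quantile normalization (14.1% of all named genes), 13 after centring (14%), 14 with the mean over probe sets (14.1%), 16 without PSME3IP1 (16.3%), and 16 to 24 when either isolate was left out (19.7% to 24.1%). No paired analysis was possible because the fibroblasts have 1 array.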
